A study of Saccharomyces cerevisiae with 12 samples.

Results

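The oxidant defence enzymes described here are 10 genes of budding yeast (Saccharomyces cerevisiae), taken by their systematic names from a table of RNA levels of 6571 genes. They are the catalase genes CTT1 and CTA1, the superoxide dismutase genes SOD1 and SOD2, the thioredoxin genes TRX1 and TRX2, and the peroxiredoxin genes TSA1, TSA2, AHP1 and PRX1. All 10 were found in the table. RNA was sequenced from a WT strain and from a strain with the spt6 allele tSH2Δ, which lacks the tandem SH2 domain that the histone chaperone Spt6 uses to bind RNA polymerase II. There were 3 libraries of each genotype, and the labels give the background S288C for both. Both strains were grown in YPD, which is rich in glucose, for 4 h from a starting OD of 0.2, with no other treatment, so no oxidant was added in either group. The comparison asked how RNA levels differ when Spt6 lacks this contact, in a study on the role of Spt6 in mRNA stability. An RNA level does not tell how much of a difference lies in synthesis and how much in decay. The labels name neither the number of independent clones nor whether replicates came from separate cultures. The p-values therefore cover the spread between these libraries alone, which may be technical.

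Respiration and other oxidative reactions leave superoxide in the cell. Superoxide dismutases turn it into hydrogen peroxide, which catalases break down directly and peroxiredoxins reduce through a reactive cysteine. A cysteine oxidised in this way is reduced again, for most peroxiredoxins by a thioredoxin, and the thioredoxin by thioredoxin reductase at the expense of NADPH. In yeast the transcription factors Yap1 and Skn7 induce thioredoxin and peroxiredoxin genes on oxidant exposure, while CTT1 belongs to the general stress genes driven by Msn2 and Msn4.

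The libraries held 20483931 to 27069700 reads, 84.6% to 87.6% of them in genes, and read numbers per gene were recovered from the deposited values. Across genes, log2 levels correlated at 0.996 or more within a strain and at 0.915 to 0.918 between strains. SPT6, the altered gene, stood at 173.8 to 184.9 rescaled RPKM in WT and 83.8 to 85.4 in tSH2Δ. The allele lacks part of the coding sequence, while the same gene length was used for both strains. How much of this difference comes from the missing part was not tested. No gene was at 0 reads in all WT libraries and at 10 RPKM or more in all tSH2Δ libraries, and 2 genes, YBR012C and YBR013C, were so the other way, at 0 in tSH2Δ and at 21.2 to 24.2 and 28.7 to 31.4 RPKM in WT. Whether the strains differ at this place in the genome was not tested. The summed level, in RPKM as deposited, of 5 genes that mark mating type a was 2948 to 3129 RPKM in WT and 2333 to 2604 in tSH2Δ, and that of 3 genes of mating type alpha was 10.4 to 11.4 and 30.6 to 33.4. Of the a genes, MFA1 (means 628 in WT and 320 in tSH2Δ), MFA2 (1465 and 1310) and STE6 (338 and 186) were lower in tSH2Δ as deposited. STE2 (441 and 509) and BAR1 (144 and 146) were not. In rescaled RPKM each of the 5 was lower in tSH2Δ. The alpha genes did not move together. MF(ALPHA)2 had a mean of 7.49 RPKM in WT and 30.5 in tSH2Δ, STE3 of 3.16 and 1.01, and MF(ALPHA)1 of 0.339 and 0.757. The summed level of 4 sporulation genes was 21.1 to 24.5 RPKM as deposited in WT and 26.5 to 27.9 in tSH2Δ. Of these, the mean of NDT80 was 8.60 RPKM in WT and 19.0 in tSH2Δ, and that of SPO11 3.386 and 4.397, while IME1 had 7.48 and 1.92 and SPS1 3.31 and 1.73. In rescaled RPKM only NDT80 was higher in tSH2Δ, with a log2 fold change of 0.52. SPO11 had -0.17 (limma adjusted p = 0.239, not called), IME1 -1.98 and SPS1 -1.07.

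The deposited unit is RPKM, reads per kilobase of gene, scaled to the depth of the library. Between the strains the median gene stood 0.57 higher in tSH2Δ on the log2 scale in RPKM as deposited. Libraries were therefore divided by median-ratio factors, and the result, rescaled RPKM, gives a gene's level relative to the typical gene of its library. The test was limma on log2 of rescaled RPKM plus 1, with Benjamini-Hochberg adjustment over 6307 genes with enough signal, and all 10 members were among these. Fold changes are tSH2Δ over WT. These are bulk libraries, in which more RNA per cell and more cells that express a gene cannot be told apart.

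CTT1, CTA1 and PRX1 rose in tSH2Δ, and TRX1 and TRX2 fell, in each of 4 ways to scale the libraries. SOD1, SOD2, TSA1 and AHP1 were lower relative to the median gene, but SOD1, SOD2 and TSA1 were higher in the other 3 scalings and AHP1 was higher after quantile normalization and not called in the remaining scalings. TSA2 did not pass the test. This makes 3 members higher, 6 lower and 1 not called, beside 41.7% of all tested genes called higher and 41.9% called lower (83.5% called in all). The values of the strains did not overlap for 9 of the 10 members, beside 84.7% of all genes. A member was thus called about as often as any other gene, and the counts alone say nothing particular of the 10. A log2 fold change of 1 or more was reached by 2 members, CTT1 and CTA1, beside 7.90% of all genes, and one of -1 or less by TRX1, beside 9.50%. The median log2 fold change of the members was -0.19, and that of all tested genes 0.01.

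**Figure D1:**
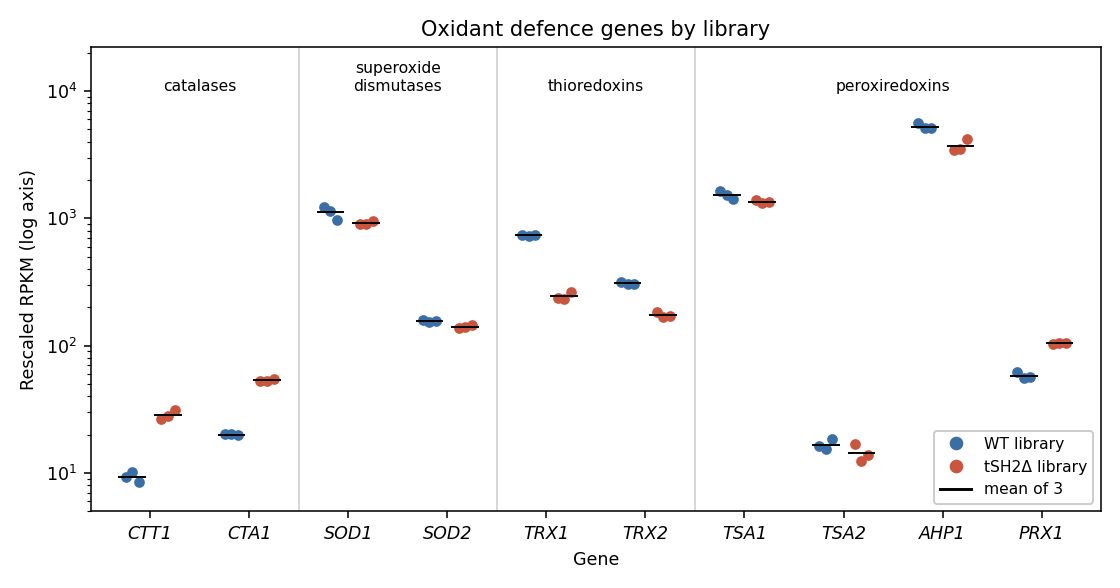
Rescaled RPKM (log axis) of the 10 genes, grouped by enzyme class, with a point for each of the 3 WT (blue) and 3 tSH2Δ (red) libraries and a line at each mean. The points of the strains are separate for every gene except TSA2, where they overlap. The largest gaps are the higher tSH2Δ levels of CTT1 and CTA1 and the lower ones of TRX1.

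The catalases had the largest rises among the members. CTT1 (YGR088W, chromosome VII, 654634 to 656322, sacCer3) encodes the cytosolic catalase T. Its rescaled RPKM was 9.35, 10.1 and 8.56 in the WT libraries and 26.4, 28.1 and 31.0 in the tSH2Δ libraries. Every tSH2Δ library was thus above every WT library. The means were 9.34 ± 0.773 and 28.5 ± 2.32 (SD, n = 3), a ratio of 3.05. The log2 fold change was 1.51 with an SE of 0.0783 (limma adjusted p = 3.49e-07). In RPKM as deposited the ratio was 4.57. CTT1 was read at 249 to 303 reads per WT library, where counting error alone is up to 6.34%, and at 1371 to 1705 reads per tSH2Δ library.

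CTA1 (YDR256C, chromosome IV, 968133 to 969680) encodes catalase A of peroxisomes and mitochondria, which in yeast is repressed by glucose and induced on fatty acids. Its rescaled RPKM was 20.2, 20.2 and 19.8 in WT and 52.7, 52.6 and 54.6 in tSH2Δ. The replicates of each strain lay close together and the strains far apart. On the log2 scale the gene rose by 1.37 with an SE of 0.0380 (limma adjusted p = 1.85e-08), with means of 20.1 ± 0.180 and 53.3 ± 1.16 (SD, n = 3), a ratio of 2.66. In tSH2Δ CTT1 was still among the scarcer genes, at ranks 4835 to 5074 of the 6571 genes ordered from the highest RPKM, while CTA1, at ranks 3290 to 3407, stood near the middle of this order.

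The thioredoxins had the largest falls. TRX1 (YLR043C, chromosome XII, 231702 to 232013), a cytosolic thioredoxin, stood at 737, 732 and 735 rescaled RPKM in WT and at 237, 232 and 264 in tSH2Δ. The highest tSH2Δ library was far below the lowest WT library. The means were 735 ± 2.75 and 244 ± 17.0 (SD, n = 3), 3.01 times lower in tSH2Δ (log2 fold change -1.59, SE 0.0529, limma adjusted p = 3.9e-08). In RPKM as deposited TRX1 was 2.01 times lower.

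TRX2 (YGR209C, chromosome VII, 912913 to 913227), the paralog that in yeast is the more strongly induced by oxidants, fell less. It stood at 317, 303 and 307 rescaled RPKM in WT and at 184, 169 and 172 in tSH2Δ, again with no overlap. The means were 309 ± 7.28 and 175 ± 7.70 (SD, n = 3), and the log2 fold change was -0.82 with an SE of 0.0423 (limma adjusted p = 3.5e-07). In RPKM as deposited the fall was small, with means of 252.8 ± 5.99 and 214.7 ± 10.9 (SD, n = 3), but TRX2 was still called lower (log2 fold change -0.24, limma adjusted p = 0.000922). TRX1 and TRX2 have similar coding sequences, and the sources used here do not say how the authors assigned reads that match both, so the split between them is uncertain.

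The peroxiredoxins did not move together. PRX1 (YBL064C, chromosome II, 100371 to 101156), the mitochondrial member, was the one that rose under every scaling. It stood at 62.3, 55.5 and 56.8 rescaled RPKM in WT and at 103, 105 and 105 in tSH2Δ. The groups were well apart, with means of 58.2 ± 3.61 and 104.3 ± 1.43 (SD, n = 3), a ratio of 1.79. On the log2 scale PRX1 rose by 0.83 (SE 0.0472, limma adjusted p = 5.75e-07).

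AHP1 (YLR109W, chromosome XII, 368781 to 369311), a cytosolic peroxiredoxin with a preference for alkyl hydroperoxides, was the most abundant of the 10. Its rescaled RPKM was 5566, 5119 and 5089 in WT and 3463, 3497 and 4212 in tSH2Δ. All tSH2Δ libraries were below all WT libraries, with library 3 of tSH2Δ nearer to WT than the other two. Relative to the median gene the log2 fold change was -0.50 with an SE of 0.108 (limma adjusted p = 0.0023). In RPKM as deposited the means were 4301 ± 196.1 and 4560 ± 448 (SD, n = 3) and the difference was not called (log2 fold change 0.08, limma adjusted p = 0.399), and after quantile normalization AHP1 was called higher (0.75, limma adjusted p = 0.000246).

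TSA1 (YML028W, chromosome XIII, 220138 to 220728), the main cytosolic peroxiredoxin of the thioredoxin-dependent kind, stood at 1629.7, 1524 and 1421 rescaled RPKM in WT and at 1393, 1307 and 1348 in tSH2Δ. The groups were separate by a narrow margin, with WT library 3 next to tSH2Δ library 1. The log2 fold change was -0.17 relative to the median gene (SE 0.0672, limma adjusted p = 0.0388) and 0.41 in RPKM as deposited (limma adjusted p = 0.000163). With 1 library left out, TSA1 stayed called without WT library 3 (-0.23, limma adjusted p = 0.00992) and was not called without any of the other 5 (-0.20 to -0.13).

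TSA2 (YDR453C, chromosome IV, 1365072 to 1365662), the paralog of TSA1, was read at 152 to 188 reads per WT library and 231 to 306 per tSH2Δ library. Its rescaled RPKM was 16.2, 15.5 and 18.5 in WT and 16.8, 12.5 and 13.8 in tSH2Δ. The groups overlapped, and the difference of -0.21 on the log2 scale (SE 0.109, limma adjusted p = 0.0987) did not pass the test. Without tSH2Δ library 1 it was called lower (-0.32, limma adjusted p = 0.0117). The sign was positive in RPKM as deposited (0.33, limma adjusted p = 0.0207) and negative after quantile normalization (-0.58, limma adjusted p = 0.00151). TSA1 and TSA2 also have similar sequences, and TSA1 had 14442 to 25948 reads per library, so reads of TSA1 assigned to TSA2 could make up part of the TSA2 values, which was not tested.

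The superoxide dismutases were slightly lower relative to the median gene and higher in the other 3 scalings. SOD1 (YJR104C, chromosome X, 622550 to 623014), the copper-zinc enzyme of the cytosol, stood at 1223, 1142 and 968 rescaled RPKM in WT and at 907, 908 and 953 in tSH2Δ. WT library 3 lay just above the highest tSH2Δ library. Relative to the median gene SOD1 was lower, at -0.26 on the log2 scale (SE 0.0852, limma adjusted p = 0.0195), and in RPKM as deposited it was higher by 0.32 (limma adjusted p = 0.00326). After quantile normalization SOD1 was higher by 0.66 (limma adjusted p = 1.25e-05). The lower call was lost without WT library 1 (-0.19) or 2 (-0.24) and without tSH2Δ library 1 or 2 (-0.25 each).

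SOD2 (YHR008C, chromosome VIII, 122889 to 123590), the manganese enzyme of the mitochondrial matrix, had the smallest difference of the called members. It stood at 158.3, 153.0 and 156.6 rescaled RPKM in WT and at 138.4, 139.0 and 145.0 in tSH2Δ, with no overlap. The log2 fold change was -0.15 with an SE of 0.0348 (limma adjusted p = 0.00412), and 0.43 in RPKM as deposited (limma adjusted p = 2.45e-06). After quantile normalization it was 0.24 (limma adjusted p = 0.000186). The change of SOD2 is thus close to that of the median gene, and its direction depends on the scaling.

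**Figure D2:**
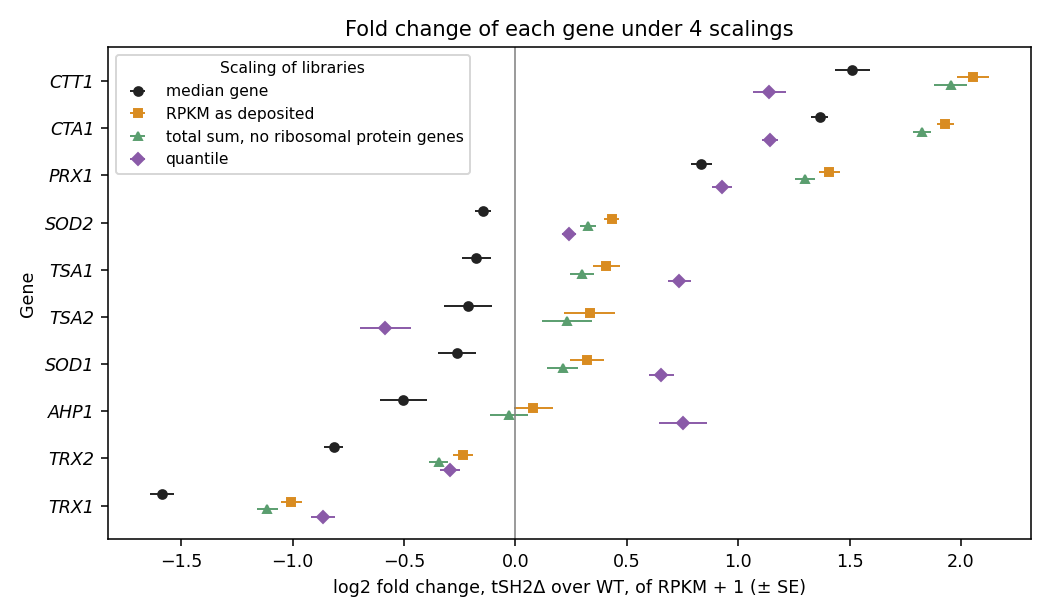
Log2 fold change (tSH2Δ over WT, RPKM + 1) of each gene with its limma SE, under scaling to the median gene (black circles), RPKM as deposited (orange squares), total-sum scaling without ribosomal protein genes (green triangles) and quantile normalization (purple diamonds). CTT1, CTA1 and PRX1 stay to the right of 0 and TRX1 and TRX2 to the left, while the signs of the other 5 differ between scalings.

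The counts of called members show the same dependence. With RPKM as deposited 7 members were higher and 2 lower, beside 72.4% and 17.3% of all genes. With total-sum scaling 6 were higher and 2 lower, beside 67.5% and 20.8%. After quantile normalization 7 were higher and 3 lower, beside 40.0% and 41.1%.

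Ranks within a library do not depend on a scaling factor. From WT to tSH2Δ the rank of AHP1 among the 6571 genes went from 13 to 15 up to 2 to 6. TSA1 went from ranks 108 to 118 up to 43 to 56, SOD1 from 146 to 167 up to 87 to 92, and SOD2 from 1142 to 1180 up to 923 to 965. These 4 genes thus stood higher in the order of genes in tSH2Δ, although 3 of them differed by 0.26 or less in log2 level relative to the median gene. TRX1 moved the other way, from ranks 214 to 229 down to 395 to 457, and TRX2 from 520 to 553 down to 649 to 734. PRX1 moved furthest up among the peroxiredoxins, from 2781 to 3064 to ranks 1447 to 1506, and TSA2 moved down from 5240 to 5396 to ranks 5550 to 5748.

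**Figure D3:**
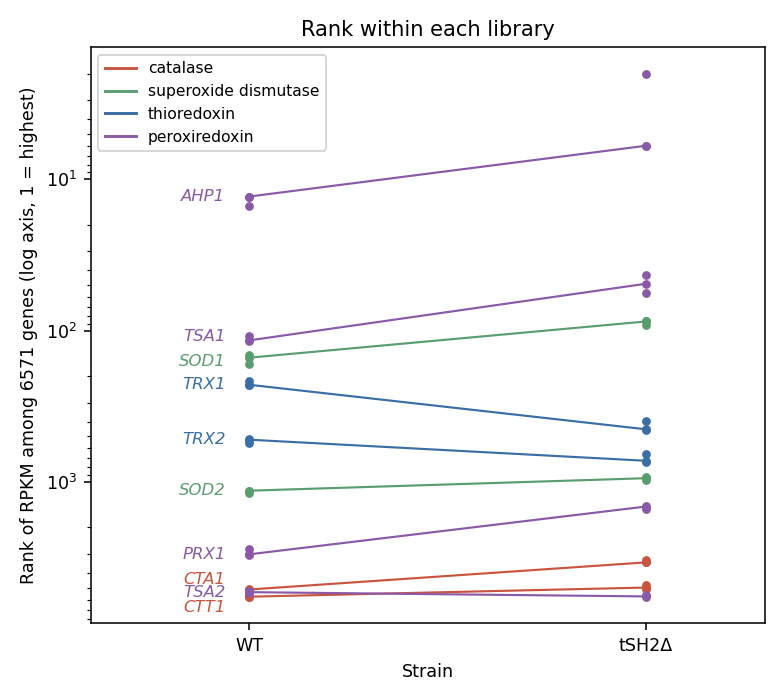
Rank of each gene's RPKM among 6571 genes (log axis, 1 is the highest) in the WT and tSH2Δ libraries, with a point per library and a line between the medians, coloured by enzyme class. The lines of TRX1, TRX2 and TSA2 go down and the other 7 go up.

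The order of the 10 genes by RPKM, which is per length, was nearly the same in both strains. In WT it ran AHP1, TSA1, SOD1, TRX1, TRX2, SOD2, PRX1, CTA1, TSA2 and CTT1, and in tSH2Δ CTT1 and TSA2 had changed places. No neighbours in this order had overlapping ranges over the libraries of a strain. The closest were CTA1 and TSA2 in WT, with means 1.20 times apart, and TRX2 and SOD2 in tSH2Δ, 1.24 times apart. SOD1 over TRX1 went from 1.51 in WT to 3.78 in tSH2Δ, the widest opening between neighbours. Together the 10 genes took 0.916% ± 0.0303 of the summed RPKM of all genes in WT and 0.993% ± 0.0476 in tSH2Δ (SD, n = 3), of which AHP1 took 0.524% ± 0.0188 and 0.547% ± 0.0502.

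By class, summed RPKM as deposited of the catalases was 24.0 ± 0.524 in WT and 100.2 ± 2.76 in tSH2Δ, and that of the thioredoxins was 854 ± 12.0 and 514 ± 15.5 (SD, n = 3). The peroxiredoxins summed to 5456 to 5914 RPKM as deposited in WT and 6086 to 6845 in tSH2Δ, but to 6585 to 7274 rescaled RPKM in WT and 4921 to 5680 in tSH2Δ, so the direction of this sum turned with the scaling. The superoxide dismutases turned likewise, with 1036 ± 96.3 and 1303 ± 17.7 RPKM as deposited and 1267 ± 130.5 and 1063 ± 30.2 rescaled RPKM (SD, n = 3). The sums of the catalases and thioredoxins kept their direction in rescaled RPKM. These sums and their ratios were chosen after the single values were seen, and carry no test. Peroxiredoxin RNA over thioredoxin RNA was 6.90, 6.49 and 6.32 in the WT libraries and 11.8, 12.3 and 13.0 in the tSH2Δ libraries, a ratio that no scaling factor alters. Superoxide dismutase RNA over catalase RNA was 46.8, 42.8 and 39.6 in WT and 13.2, 13.0 and 12.8 in tSH2Δ. Single genes made up most of 2 of these sums, in mean RPKM as deposited. AHP1 held 4301 of 5609.5 for the peroxiredoxins in WT and 4560 of 6360 in tSH2Δ. SOD1 held 908 of 1036 for the superoxide dismutases in WT and 1130 of 1303 in tSH2Δ.

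The share of a gene within a pair of related genes is also unaltered by a factor per library, and 4 pairs were compared. Quantile normalization is no such factor and does change ratios within a pair. The log2 fold change of TRX2 minus that of TRX1 was 0.77 relative to the median gene and 0.57 after quantile normalization. For SOD2 minus SOD1 these values were 0.12 and -0.42, for CTT1 minus CTA1 0.14 and -0.0034, and for TSA2 minus TSA1 -0.04 and -1.32. The test was a two-sided exact permutation test, whose smallest possible p with 3 against 3 libraries is 0.1. TRX2 made up 30.1%, 29.3% and 29.5% of TRX1 plus TRX2 in WT, and 43.7%, 42.2% and 39.5% in tSH2Δ. The groups were apart by 12.2 percentage points between the means, with the smallest p the test allows (exact permutation p = 0.1, adjusted p = 0.4 over 4 pairs). CTT1 made up 31.7% ± 1.63 of the catalase RNA in WT and 34.8% ± 1.41 in tSH2Δ (SD, n = 3, exact permutation p = 0.2, adjusted p = 0.4), with ranges that overlapped by a small margin. SOD2 made up 12.4% ± 1.33 and 13.2% ± 0.0370 of the superoxide dismutase RNA (exact permutation p = 0.4, adjusted p = 0.533 over 4 pairs). TSA2 made up 1.09% ± 0.167 and 1.05% ± 0.129 of TSA1 plus TSA2 (exact permutation p = 0.7, adjusted p = 0.7). With 3 against 3 libraries the test could not pass the threshold for any pair, so it does not show that the shares of CTT1, SOD2 and TSA2 were alike.

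**Figure D4:**
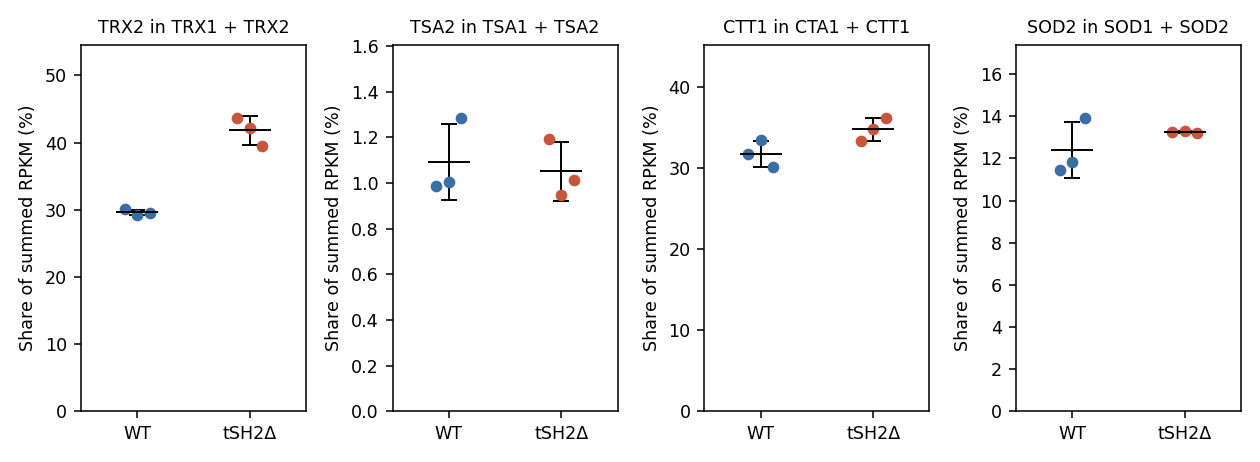
Share (%) of the first-named gene in the summed RPKM of its pair, with a point per library, the mean and the SD, for 3 WT (blue) and 3 tSH2Δ (red) libraries, each panel with its own axis from 0. The TRX2 share is 29.3% to 30.1% in WT and 39.5% to 43.7% in tSH2Δ, while the points of the strains overlap in the other panels.

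Genes that work beside these enzymes were taken as 5 lists, described by counts relative to the median gene. Of 54 such genes 20 were higher and 29 lower, beside 41.7% and 41.9% of all genes, and 5 did not pass the test. Their median log2 fold change was -0.33. These counts moved with the scaling. In RPKM as deposited 31 were higher and 16 lower, beside 72.4% and 17.3% of all genes. With total-sum scaling 26 were higher and 19 lower, beside 67.5% and 20.8%. After quantile normalization 18 were higher and 27 lower, beside 40.0% and 41.1%. The sign was the same in all 4 scalings for 38 of the 54 genes, and this share was not computed over all genes. The counts of each single list stand beside the same shares of all genes, and with so few genes are description only. In the rest of the thioredoxin cycle 4 of 7 genes were lower and 1 higher (3 and 3 as deposited). TRR1, the cytosolic thioredoxin reductase that serves TRX1 and TRX2, stood at 656, 626 and 616 rescaled RPKM in WT and at 257, 248 and 259 in tSH2Δ. Its log2 fold change of -1.31 (limma adjusted p = 3.12e-08) was thus of the same order as that of TRX1. The methionine sulfoxide reductase gene MXR1 fell by 1.096 on the log2 scale and the mitochondrial thioredoxin gene TRX3 by 0.76, while TRR2, the mitochondrial reductase, rose by 0.70.

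In the glutathione cycle 8 of 16 genes were lower and 7 higher, while in RPKM as deposited 3 were lower and 10 higher. The peroxidase gene GPX2 (-1.94), HYR1 (-0.89), whose product senses peroxide for Yap1, and the glutathione synthetase gene GSH2 (-0.78) fell furthest. The glutathione transferase genes GTT2 (1.78) and GTT1 (0.29) and the mitochondrial glutaredoxin gene GRX5 (0.43) rose furthest. Among 9 other detoxifying and metal delivery genes 7 were lower and 1, the quinone reductase gene LOT6 (0.77), was higher (4 lower and 3 higher as deposited). OYE2, an NADPH oxidoreductase, changed by -2.22. CCS1, the chaperone that loads copper into Sod1, stood at 278, 285 and 269 rescaled RPKM in WT and at 112, 109 and 100.3 in tSH2Δ, a log2 fold change of -1.36 (limma adjusted p = 5.13e-08), beside -0.26 for SOD1. The copper chaperone gene ATX1 changed by -1.33.

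Of 12 genes listed for NADPH supply 6 were lower and 5 higher (4 and 7 as deposited). The largest falls were GND1 (-2.23), TAL1 (-1.64) and TKL1 (-1.47). GND1 encodes a dehydrogenase of the pentose phosphate pathway, but not the only one. TAL1 and TKL1 belong to the non-oxidative branch of that pathway and make no NADPH themselves. IDP2, a cytosolic isocitrate dehydrogenase (1.13), and the NAD kinase genes YEF1 (1.07) and POS5 (0.47) rose.

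Among 10 regulators 6 were higher and 4 lower (8 and 2 as deposited). ADR1, the activator of glucose-repressed genes to which CTA1 belongs, stood at 20.9, 20.2 and 21.7 rescaled RPKM in WT and at 73.4, 80.1 and 81.5 in tSH2Δ, a log2 fold change of 1.85 (limma adjusted p = 1.85e-08). The stress activator genes MSN2 (0.70) and MSN4 (-0.89) went opposite ways. YAP1 rose by 0.64, its binding partner gene YBP1 by 0.45, the Yap1 relative CAD1 by 0.27 and the cAMP phosphodiesterase gene PDE2 by 0.36. HAP1, which in yeast encodes a heme-responsive activator, changed by -2.80, and which HAP1 allele these strains carry was not tested. SKN7 (-0.18) and the kinase gene RIM15 (-0.28) were lower relative to the median gene, but both were higher in RPKM as deposited (0.39 and 0.28) and with total-sum scaling. The other 28 of the 30 genes named from these lists had the same sign in all 4 scalings, but most were named for the size of their change. Of the 24 genes not named 10 had the same sign in all 4.

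**Figure D5:**
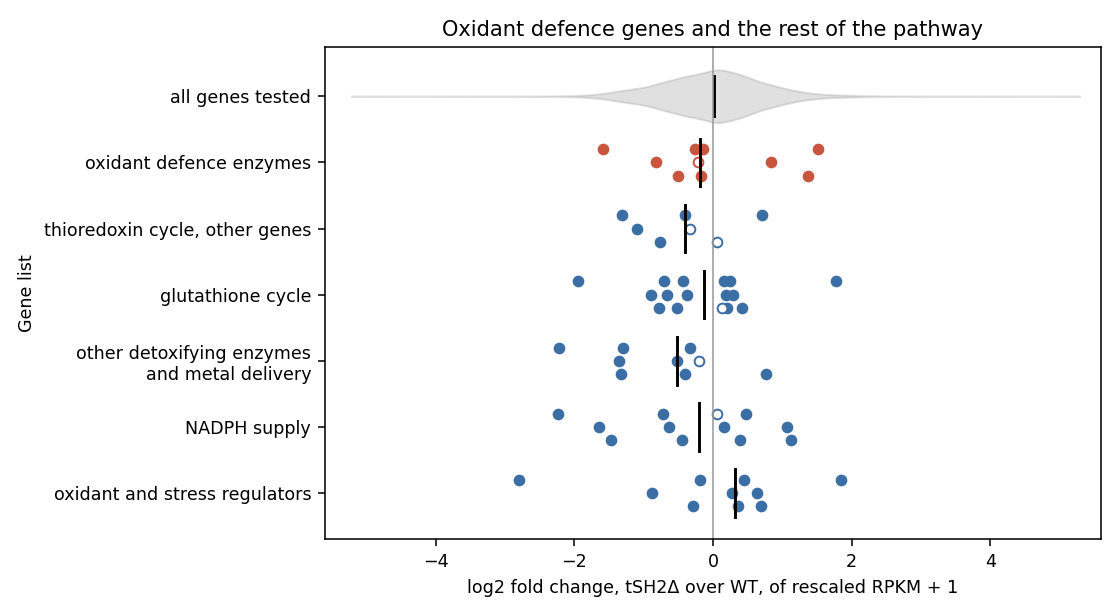
Log2 fold change (tSH2Δ over WT, rescaled RPKM + 1) of all 6307 tested genes as a grey density, of the 10 oxidant defence genes (red) and of the 54 genes in 5 related lists (blue), where filled points passed the limma test, open points did not, and black lines are medians. Each list has genes on both sides of 0, and the medians of the lists lie between -0.52 and 0.31.

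The authors' deposited table of differing genes, which gives log2 ratios of unscaled mean RPKM plus 1, lists 4 of the 10 genes. In the authors' deposited table CTT1 has a log2 ratio of 2.06, CTA1 of 1.93, PRX1 of 1.41 and TRX1 of -1.004. The other 6 genes are not in the authors' deposited table, whose entries all have a ratio of 0.500 or more in size.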

How the data were processed

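The 6 RNA libraries (3 WT, 3 tSH2Δ) were analysed, and 6 further libraries, of ATAC-seq, were not used here. The authors deposited RPKM per gene and library, and a table of differing genes. Per the file headers it holds mean RPKM, a log2 ratio of these means plus 1, and an adjusted p-value of the authors' DESeq2 test. Per the submitters' processing notes the build was sacCer3. The sources used here give neither the strand setting of the counting nor the annotation. RPKM times listed gene length gave whole multiples of 1 step per library (100% of values within 0.01 reads), and from these the reads and library totals. One row without a gene name held 0.513% to 0.926% of reads and was left out. Replicate pairs differed by more than sampling noise (chi-square per gene 3.11 to 18.3). In each strain libraries 1 and 2 were closest (3.19 in WT and 3.11 in tSH2Δ). The pairs with library 3 gave 8.9 and 14.5 in WT and 12.2 and 18.3 in tSH2Δ.

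The test took genes that reached 1 RPKM as deposited in 3 or more libraries. It was run with limma 3.58.1 in R 4.3.3 (lmFit, eBayes with trend, pseudocount 1 RPKM, threshold 0.05, two-sided) after median-ratio scaling (factors 0.813 to 0.829 in WT and 1.21 to 1.24 in tSH2Δ). The fit was tested on simulated data, in which most genes were unchanged and as many changed genes rose as fell. Those data held no shift of the median gene, so they do not test the choice of scaling. Pair shares used SciPy 1.17.1. The members and gene lists were chosen with earlier results of these data known. Genes named from the lists are the called genes of each list that rose most and fell most, at most 3 each way, and every regulator. Names and coordinates (1-based) come from RefSeq's gene table for R64, to which sacCer3 corresponds. It matched 5897 of 6571 gene IDs. No sequence was used.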

Additional observations from a re-analysis of the deposited data

How the results depend on the processing

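The rises of CTT1, CTA1 and PRX1 and the falls of TRX1 and TRX2 kept their direction and passed the test under every alternative run. The directions of the other 5 depended on scaling. With RPKM as deposited log2 fold changes turned to 0.32 for SOD1, 0.43 for SOD2, 0.41 for TSA1, 0.33 for TSA2 and 0.081 for AHP1. With total-sum scaling without ribosomal protein genes they were 0.21, 0.32, 0.30, 0.23 and -0.028 (AHP1 not called), and after quantile normalization 0.66, 0.24, 0.74, -0.58 (TSA2 now called) and 0.75. The number of members higher was then 7, 6 and 7 and lower 2, 2 and 3, and over all genes 4565 were higher and 1091 lower as deposited, 4259 and 1314 with total-sum scaling. The median gene stood 0.57 higher in tSH2Δ on the log2 scale as deposited and 0.47 higher with total-sum scaling. Median-ratio factors bring this median to 0.011 by construction. With 1 library left out, log2 fold changes ranged from -0.36 to -0.19 for SOD1, whose call was lost without WT replicate 1 or 2 or tSH2Δ replicate 1 or 2, from -0.23 to -0.13 for TSA1, whose call was kept in the fit without WT replicate 3, and from -0.32 to -0.12 for TSA2, which was called without tSH2Δ replicate 1. The number of members lower ranged from 4 to 6. The shift in the TSA2 share ranged from -0.11 to 0.0544 percentage points. The labels do not say that replicate numbers pair libraries, and same-numbered libraries did not deviate together (r = -0.25, -0.0863 and -0.277 across genes). With a replicate block 5052 genes were called in place of 5267, and TSA1 was not (-0.17, limma adjusted p = 0.0999). Pseudocounts of 0.1 and 5 RPKM, other filters and voom on whole reads changed no call of a member. Depth limits TSA2, where counting error is up to 8.11% per library.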

Other observations

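The genes next to the 10 on their chromosomes did not follow them in a common direction. The neighbours of CTA1, RMD5 and RKM4, were higher by 0.48 and 0.44 on the log2 scale, beside 1.37 for CTA1. For CTT1, NNF2 was higher by 0.28 and PDC6, at 0.928 RPKM as deposited in WT, was not called. PDC1 (YLR044C), the main pyruvate decarboxylase gene, lies at higher coordinates than TRX1 (YLR043C), on the same strand at a distance of 376 bases. By these names both are on the Crick strand, so PDC1 is upstream of TRX1 in the direction of transcription. PDC1 had 10399 RPKM as deposited in WT and 4619 in tSH2Δ. Its log2 fold change in rescaled RPKM, the scale of all fold changes given here, was -1.75, beside -1.59 for TRX1. NFG1, on the other side of TRX1, was not called (0.15). Both neighbours of TRX2, SER2 (-0.62) and YGR210C (-0.58), were lower, as TRX2 was (-0.82). AHP1 faces CCW12, a cell wall gene on the opposite strand 385 bases away. CCW12 had 5558 RPKM as deposited in WT and 4750 in tSH2Δ, and a log2 fold change of -0.81 in rescaled RPKM. The other neighbour of AHP1, YLR108C, was higher by 0.99. TSA1 lies beside the repressor gene YOX1 (1.29), and TSA2 beside the guanylate kinase gene GUK1 (-1.69). On their other sides, USA1 beside TSA1 was not called (-0.03) and PPN1 beside TSA2 was higher by 0.46. No RefSeq gene in the table overlapped a member. The 674 gene IDs without a RefSeq match had no coordinates here, so whether any of them overlaps or adjoins a member was not tested. Whether reads of neighbours reach the counts of the members was not tested.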
